A study of Mus musculus with 8 samples.

Results

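Ccl11, the gene of eotaxin-1, split the 8 libraries of the stromal vascular fraction (SVF) of gonadal white adipose tissue (WAT) into 2 sides of equal size. The SVF is what stays of a fat pad once a collagenase digest has freed the adipocytes, and it holds stromal, vascular, mesothelial and immune cells. The sides were chosen by a readout of the same libraries: a Ccl11 count, scaled to the total count of the sample (plain CPM), of 230 or more made a sample Ccl11-high, and a lower value made it Ccl11-low. Of the 8 samples, 4 were Ccl11-high (control Ab mice 6 and 9 and anti-BAFF Ab mice 8 and 10) and 4 were Ccl11-low (control Ab mice 1 and 2 and anti-BAFF Ab mice 5 and 7). Each side therefore held 2 control Ab-treated and 2 anti-BAFF Ab-treated mice, and treatment was kept as a covariate when the sides were compared.

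All 8 samples came from male C57BL/6J mice, and no transgene or deleted allele is named for them. The paper gives different starting ages for its mice, and which of them applied here is not stated. The diet was the same in every group: the mice ate a HFD (60% of its calories as fat) during 12 weeks, and then a NCD (16% as fat) until week 18. During these last 6 weeks, 4 mice received 2 mg/kg of an antibody that neutralizes BAFF, a survival factor of B cells, every 2 weeks, and 4 mice received an isotype control Ab at the same dose and interval. The libraries hold the RNA of a whole cell mixture of a fat pad that lies against the epididymis, with 1 library per mouse.

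Eotaxin-1 is a CC chemokine best known for drawing eosinophils through its receptor CCR3, and in fat it is made mainly by stromal cells. Cxcl1 encodes a CXC chemokine that acts on neutrophils through CXCR2. In stromal cells both can be induced by cytokines such as IL-1, TNF, IL-17A and oncostatin M, whose signals run in large part through NF-kB and STAT proteins.

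The promoters of 3 inflammatory genes that were higher in every Ccl11-high sample than in any Ccl11-low sample (Cxcl1, Cxcl2 and Il6) are shown because they hold forms of the NF-kB motif close to the start site. Each run gives the 250 bases before the RefSeq start site in GRCm38.p6, 5′ to 3′ on the strand of the gene, all 3 on the plus strand of chromosome 5. Capitals mark matches on either strand to GGAAANNCC, a form of the NF-kB motif. The runs are chr5:90890995-90891244 for Cxcl1, chr5:90903649-90903898 for Cxcl2 and chr5:30012864-30013113 for Il6.
Cxcl1: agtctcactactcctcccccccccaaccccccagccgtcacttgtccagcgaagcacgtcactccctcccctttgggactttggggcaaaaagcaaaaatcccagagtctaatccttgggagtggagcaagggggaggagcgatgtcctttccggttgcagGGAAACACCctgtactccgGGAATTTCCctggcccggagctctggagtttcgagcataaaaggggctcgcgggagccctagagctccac
Cxcl2: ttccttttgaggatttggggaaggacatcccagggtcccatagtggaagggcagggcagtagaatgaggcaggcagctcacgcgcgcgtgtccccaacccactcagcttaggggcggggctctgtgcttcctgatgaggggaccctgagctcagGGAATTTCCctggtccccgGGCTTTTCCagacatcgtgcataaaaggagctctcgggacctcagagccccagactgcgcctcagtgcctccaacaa
Il6: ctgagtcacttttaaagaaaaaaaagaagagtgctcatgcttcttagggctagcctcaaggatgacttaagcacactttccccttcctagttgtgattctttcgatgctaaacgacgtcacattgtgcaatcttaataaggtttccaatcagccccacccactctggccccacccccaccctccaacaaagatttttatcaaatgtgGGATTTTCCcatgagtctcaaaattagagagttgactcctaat
Cxcl1 had matches whose first bases lay 89 and 70 bases before the start site, Cxcl2 had matches at 96 and 77 bases, and Il6 had 1 match at 43 bases. This form was found in 5.19% of the 11533 promoters of measured genes that could be matched by symbol. The share was 6.39% of 1095 promoters of genes that were higher in every Ccl11-high sample. It was 4.73% of 910 promoters of genes that were lower in every Ccl11-high sample. Other motifs were searched as well. In the same order, a looser NF-kB form stood at 61.0%, 63.6% and 60.2%, and a STAT form at 5.84%, 6.30% and 7.14%. The TATA motif stood at 6.95%, 8.22% and 4.62%, a tilt no smaller than that of GGAAANNCC. The shares were not tested against each other and do not single out NF-kB. A match is a stretch of letters and was not tied to binding of any factor here.

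The libraries held between 13562340 and 18548024 counts, and 3 counts, used here as the limit of what such depth resolves, were 0.221 CPM in the smallest of them. Total counts did not separate the sides (mean 16091423 in the Ccl11-high and 16209353 in the Ccl11-low samples; exact permutation test, two-sided, p = 0.943, and 0.943 after Benjamini-Hochberg adjustment over 2 measures). The mouse numbers of the Ccl11-high samples were 6 to 10 and those of the Ccl11-low samples 1 to 7, with means of 8.25 ± 1.71 (SD, n = 4) and 3.75 ± 2.75 (SD, n = 4). The difference gave p = 0.0571 by the exact permutation test, two-sided (adjusted p = 0.114), where the smallest p that 4 against 4 allows is 0.0286. Nothing in the labels says what the order of the numbers stands for.

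Several libraries stood apart, and they lay on both sides. Control Ab mouse 1 had the lowest median correlation with the other samples (Pearson's r of log2 CPM 0.972, against 0.980 to 0.987). Genes of the epididymis, summed over the 8 listed genes that were measured, stood at 19.3, 1920.4, 673 and 1893 CPM in the Ccl11-low and 696, 103, 131 and 66.4 CPM in the Ccl11-high samples, so that control Ab mouse 2 and anti-BAFF Ab mouse 7 were the highest. Neutrophil genes were highest in anti-BAFF Ab mouse 5, at a summed 65.5, 101, 341 and 80.0 CPM in the Ccl11-low and 143, 93.8, 75.6 and 86.6 CPM in the Ccl11-high samples. Tgm4, a transglutaminase made by the prostate, stood at 1.12, 0.946, 0.337 and 0.563 CPM in the Ccl11-low and 0.805, 16.3, 595 and 48.1 CPM in the Ccl11-high samples. Tgm4 was named after its values were seen, and only control Ab mouse 9, anti-BAFF Ab mouse 8 and anti-BAFF Ab mouse 10, all Ccl11-high, were above 2 CPM. Here and from now on, CPM are scaled by TMM normalization, and 4 values in a row stand for control Ab mice 1 and 2 and anti-BAFF Ab mice 5 and 7 on the Ccl11-low side and for control Ab mice 6 and 9 and anti-BAFF Ab mice 8 and 10 on the Ccl11-high side.

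Ccl11 (chromosome 11, 82057823 to 82062955, plus strand, mm10) had plain CPM of 157.9, 178.3, 189.4 and 177.9 in the Ccl11-low and 284.0, 319.3, 323.4 and 278.1 in the Ccl11-high samples. Nearest to the limit of 230 were anti-BAFF Ab mouse 5 on the low side and anti-BAFF Ab mouse 10 on the high side, with no sample between them. On the TMM scale the values were 159, 177, 186 and 173 CPM on the low side and 282, 319.6, 339.6 and 284 CPM on the high side, a treatment-adjusted log2 difference of 0.82 (SE 0.08). These values chose the samples and are a description. The same holds for every difference between the sides below, since it was measured in the libraries that Ccl11 had split: sizes and spreads are given, and no p-value.

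Treatment was not used by the split and could be tested. Ccl11 averaged 234.3 ± 78.6 CPM (SD, n = 4) under control Ab and 245.7 ± 80.0 CPM (SD, n = 4) under anti-BAFF Ab, and the log2 fold change of anti-BAFF Ab over control Ab was 0.07, with a 95% interval from -0.57 to 0.71 (edgeR's quasi-likelihood test, adjusted p = 1.00 over 15963 genes). Cxcl1 averaged 837 ± 285 CPM (SD, n = 4) under control Ab and 985 ± 269.5 CPM (SD, n = 4) under anti-BAFF Ab (log2 fold change 0.23, 95% interval from -0.40 to 0.87, edgeR adjusted p = 1.00). A treatment effect within these intervals would not have been detected. Under anti-BAFF Ab, edgeR called 9 genes lower (0.0564% of those tested) and 0 higher (0%), and an unadjusted p under 0.05 was reached by 198 that were lower and 106 that were higher. DESeq2 called 64 genes lower and 3 higher. Those called by edgeR were Ighm, Igkc, Iglc2, Iglv2, Igkv14-126, Ighv11-2, Ighv12-3, Jchain and Pou2af1, which encode immunoglobulin chains, the joining chain and a B cell coactivator. With the Ccl11 side as a further term, 2 genes were called lower, and both (Igkv14-126 and Ighv11-2) were among the 9.

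Cxcl1 (chromosome 5, 90891241 to 90893115, plus strand) stood at 466, 766, 745 and 758 CPM in the Ccl11-low and 1093, 1023, 1214 and 1223 CPM in the Ccl11-high samples. Every Ccl11-high sample was above every Ccl11-low sample, and the treatment-adjusted log2 difference was 0.74 (SE 0.14). The lowest value by a wide margin was that of control Ab mouse 1, and the difference was 0.61 without it. Among the 11038 genes with a mean of at least 5 CPM, Cxcl1 ranked 338 by the likeness of its pattern to that of Ccl11 (Pearson's r = 0.91 over 8 samples, log2 CPM centred within treatment).

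**Figure D1:**
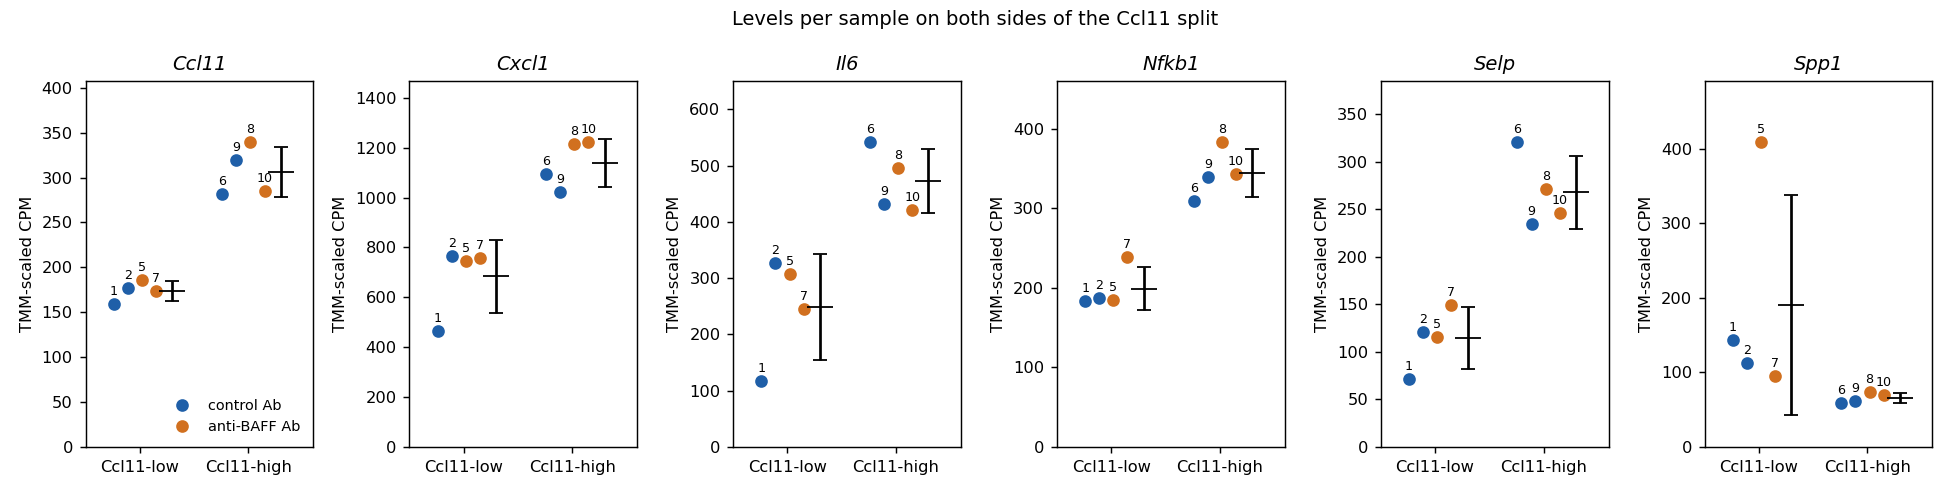
TMM-scaled CPM of Ccl11, Cxcl1, Il6, Nfkb1, Selp and Spp1 (vertical axes, linear, starting at 0) in the Ccl11-low and Ccl11-high samples, with 1 point per mouse (mouse number beside it, colour for treatment) and the mean ± SD of each side as bars. In the first 5 panels all 4 Ccl11-high points lie above all 4 Ccl11-low points, and for Spp1 all 4 lie below.

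Of the 15962 genes measured beside Ccl11, 1492 were higher in all 4 Ccl11-high samples than in any Ccl11-low sample (9.35% of the genes) and 1125 were lower in all 4 (7.05%). Such genes are called separated. Scaled by library size only, in place of TMM, 1090 were higher and 1902 lower, so which direction held more genes depended on the scaling. With a difference of at least 1.5-fold as well, 379 genes were higher (2.37%) and 127 lower (0.796%), and at 2-fold 49 were higher and 21 lower. The median log2 difference over all genes was -0.03. Since samples picked for 1 gene will also differ in genes that vary with it, these shares are the level against which the gene groups below were read. Long genes were separated upward more often than short ones: among the 3991 longest genes (median length 8715 bases) 609 were higher and 221 lower, and among the 3991 shortest (median 1509 bases) 175 were higher and 229 lower. Median log2 differences of these genes were 0.03 and -0.06. The part of gene length in the results below was not tested.

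The sides could also be compared within the control Ab-treated and within the anti-BAFF Ab-treated mice, which gives differences that share no sample. Across genes, the difference within control Ab and that within anti-BAFF Ab correlated with Pearson's r = 0.22, and 67.6% of the genes had the same sign in both. Genes are not independent replicates, and the selection on Ccl11 acted in both treatments, so this is a description. Ccl11 itself differed by 0.84 within control Ab and by 0.79 within anti-BAFF Ab on the log2 scale, and Cxcl1 by 0.82 and 0.70.

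**Figure D2:**
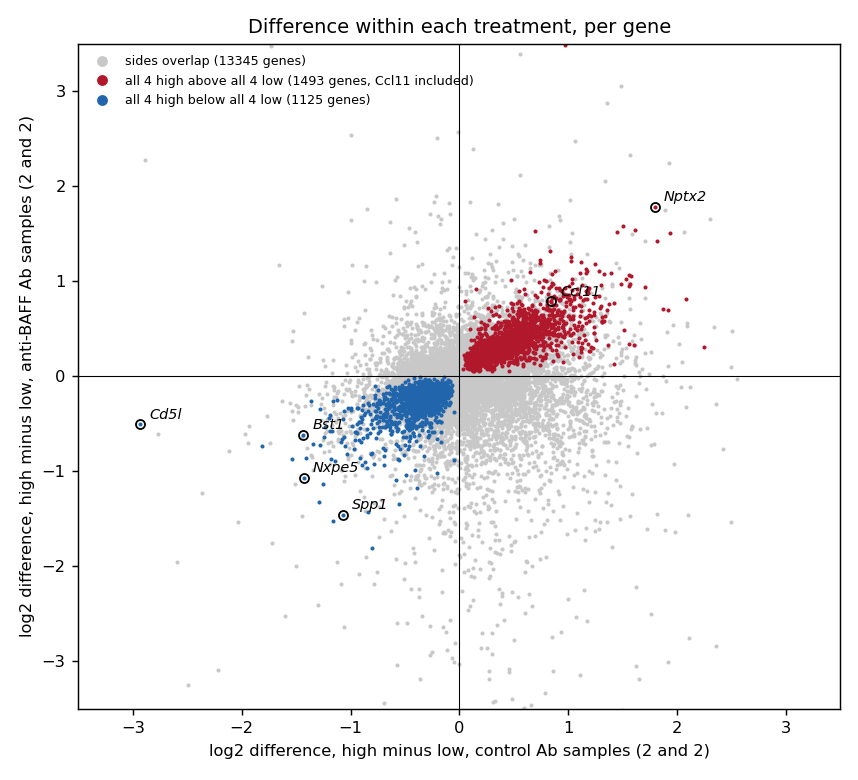
Each point is a gene, with the log2 difference of Ccl11-high minus Ccl11-low samples within control Ab (horizontal) and within anti-BAFF Ab (vertical); red genes were higher and blue genes lower in all 4 Ccl11-high samples, and gray genes overlapped. Of all genes, 47 lie beyond the axes at 3.5, and Ccl11, Nptx2, Cd5l, Bst1, Nxpe5 and Spp1 are circled.

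The 12 genes with the largest upward differences among separated genes (mean of at least 5 CPM) included genes of a matrix protease, surface proteins, a cytokine and transcription factors. Nptx2, a secreted pentraxin, stood at 6.45, 20.4, 12.8 and 18.2 CPM in the Ccl11-low and 28.2, 57.4, 50.8 and 55.2 CPM in the Ccl11-high samples, a log2 difference of 1.72 (SE 0.35). Taf4b, a subunit of a TFIID variant, stood at 6.20, 12.5, 8.41 and 12.0 CPM and 28.9, 25.5, 31.1 and 28.1 CPM and had a log2 difference of 1.54 (SE 0.21). The sides of Taf4b were more than 2-fold apart at their nearest values, 12.5 CPM in control Ab mouse 2 and 25.5 CPM in control Ab mouse 9. Adamts4, an aggrecanase that cuts matrix proteoglycans, stood at 254, 808, 594 and 634 CPM and 1452, 1255, 1439 and 1136 CPM (log2 difference 1.21 (SE 0.31)). Creb5, a transcription factor of the ATF family, stood at 40.1, 57.2, 41.0 and 65.8 CPM and 94.8, 121, 99.1 and 131 CPM (log2 difference 1.13 (SE 0.18)). The differences of Creb5 within control Ab and within anti-BAFF Ab, 1.16 and 1.13, were nearly the same. Gng4 (a G protein gamma subunit), Plagl1 (a zinc finger factor) and Hcn4 (a pacemaker channel) had at most 20.1 CPM in any sample and log2 differences of 1.47, 1.14 and 1.09. Selp, Thbd, Csf3 and Gfpt2 are described with their groups.

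Among separated genes C1rb had the largest upward difference, and much of it came from 1 library. C1rb, a serine protease gene close in sequence to the complement gene C1ra, stood at 1.61, 2.19, 2.49 and 1.69 CPM in the Ccl11-low and 2.78, 5.20, 73.4 and 8.05 CPM in the Ccl11-high samples. Its log2 difference of 2.82 (SE 0.91) was 1.45 without anti-BAFF Ab mouse 8. Among the Ccl11-high samples, C1rb and Tgm4 had the same order, with anti-BAFF Ab mouse 8 far above the others and control Ab mouse 6 lowest (Tgm4 0.805, 16.3, 595 and 48.1 CPM). The part of tissue other than fat in the C1rb result was not tested. Reads of such near copies can be shared between them by a counting program, so the split between C1rb and C1ra is uncertain, and C1ra stood at 270.3 to 358 CPM in the Ccl11-low and 336 to 367 CPM in the Ccl11-high samples.

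**Figure D3:**
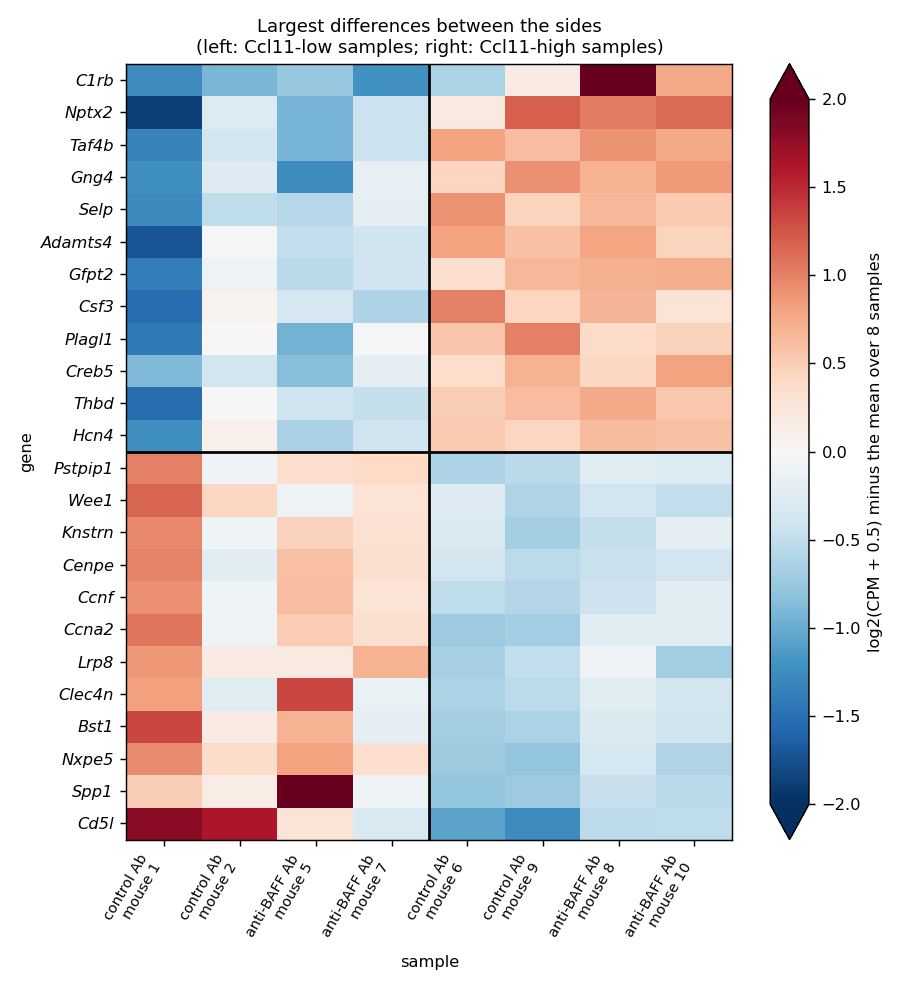
Colours give log2(CPM + 0.5) minus the mean of the gene over the 8 samples, for the 12 separated genes with the largest upward (top) and downward (bottom) log2 differences, with the Ccl11-low samples left of the line and the Ccl11-high samples right of it. Control Ab mouse 1 has the lowest value in 11 of the 12 upper genes, and anti-BAFF Ab mouse 8 stands alone in C1rb.

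Targets and feedback regulators of NF-kB, the transcription factor family behind much of the response to IL-1 and TNF, were higher on the Ccl11-high side for the most part. Of 34 listed and measured genes, 30 had a difference above 0, 15 were separated upward (44.1%, against 9.35% of all genes) and 0 downward, and their median log2 difference was 0.42 against -0.03 over all genes. Medians were 0.44 within control Ab and 0.38 within anti-BAFF Ab. Log2 differences in the list ran from -1.88 to 1.14, so the largest by size was downward, and 4 genes were below 0. Summed over the list, the level was 6890.3, 9222, 9341 and 8296 CPM in the Ccl11-low and 10922, 10924, 12014 and 11257 CPM in the Ccl11-high samples, with no overlap.

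Among the secreted products on this list, Il6, a cytokine of the acute phase, stood at 118, 327, 307 and 245 CPM in the Ccl11-low and 542, 432, 496 and 422 CPM in the Ccl11-high samples (log2 difference 0.93 (SE 0.28)). Csf3, which encodes G-CSF and drives the making of neutrophils, stood at 6.58, 20.7, 15.6 and 12.7 CPM and 40.3, 26.8, 32.0 and 24.1 CPM (log2 difference 1.14 (SE 0.32)). Ptx3, a soluble pattern recognition molecule, stood at 240.4, 602, 379 and 471 CPM and 641, 737, 902 and 884 CPM (log2 difference 0.89 (SE 0.25)). For all 3 genes control Ab mouse 1 was the lowest sample, and the other Ccl11-low samples lay between it and the Ccl11-high side. Within anti-BAFF Ab, which does not hold control Ab mouse 1, the log2 differences were 0.74 for Il6, 0.97 for Csf3 and 1.08 for Ptx3.

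The genes of 4 NF-kB subunits were separated as well. Nfkb1, the p50 subunit and its precursor, stood at 184, 188, 184 and 239 CPM in the Ccl11-low and 309.9, 339.8, 384 and 343 CPM in the Ccl11-high samples (log2 difference 0.79 (SE 0.09)). Control Ab mouse 1 did not stand out here, and the differences within control Ab and within anti-BAFF Ab were 0.80 and 0.79. Rel, Relb and Nfkb2 were separated upward with log2 differences of 0.53, 0.44 and 0.39. The atypical regulator Bcl3 (0.62), the apoptosis inhibitor Birc3 (0.47), the RNase Zc3h12a (0.29), the inhibitor Nfkbib (0.23), the metalloreductase Steap4 (0.66) and the adhesion molecules Icam1 (0.45) and Vcam1 (0.42) were separated upward as well. The early feedback genes Nfkbia and Tnfaip3 overlapped between the sides, at 727 to 855 CPM in the Ccl11-low and 845 to 924 CPM in the Ccl11-high samples for Nfkbia and at 578 to 839 and 738 to 771 CPM for Tnfaip3, with log2 differences of 0.17 and 0.06.

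Of 14 receptor genes of inflammatory cytokines, 5 were separated upward (35.7%, against 9.35% of all genes) and 0 downward, with a list median of 0.13. Il1r1, the signalling receptor of IL-1, stood at 96.0, 132, 125 and 174 CPM in the Ccl11-low and 224, 237, 304 and 300.2 CPM in the Ccl11-high samples (log2 difference 1.01 (SE 0.13)), and its differences within control Ab and within anti-BAFF Ab were 1.03 and 1.03. Osmr, the oncostatin M receptor, stood at 99.6, 141, 130.3 and 174 CPM and 248, 232, 250.4 and 280.2 CPM (log2 difference 0.90 (SE 0.13)). Il17ra and Il6st, the IL-17 receptor and the shared gp130 chain, had log2 differences of 0.67 and 0.48. Tnfrsf1a was separated by a small margin, at 282 to 305 CPM and 310.1 to 344 CPM (log2 difference 0.14 (SE 0.07)). The remaining 9 receptor genes overlapped, among them Tnfrsf1b (0.12) and Ifngr1 (-0.04).

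**Figure D4:**
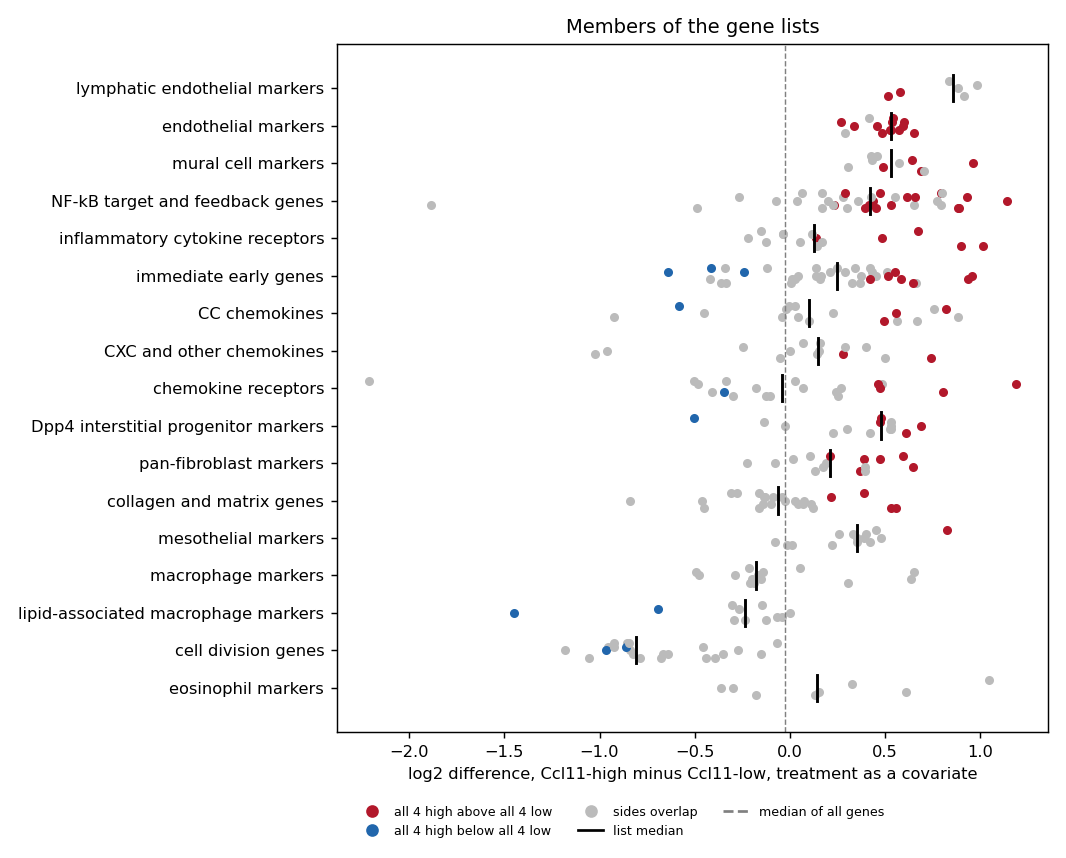
Each point is a measured gene of the list named at the left, placed by its treatment-adjusted log2 difference of Ccl11-high minus Ccl11-low samples; red points were higher and blue points lower in all 4 Ccl11-high samples. Black lines mark list medians, the dashed line marks the median over all genes of -0.03, and all 14 endothelial points lie above 0 while all 22 cell division points lie below it.

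Among the CC chemokines, with Ccl11 left out since it chose the samples, 16 of 19 genes were measured, 2 were separated upward (Ccl7 and Ccl22; 12.5%, against 9.35% of all genes) and 1 downward (Ccl6). Ccl7, a monocyte attractant encoded beside Ccl11 in the same cluster, stood at 275, 292, 308 and 329 CPM in the Ccl11-low and 339, 422, 478 and 465 CPM in the Ccl11-high samples (log2 difference 0.50 (SE 0.09)). Ccl2, also of this cluster, overlapped at 345, 329.8, 323 and 403 CPM and 383, 506, 573 and 623 CPM (log2 difference 0.56 (SE 0.12)), because control Ab mouse 6 lay below anti-BAFF Ab mouse 7. Ccl22, a product of dendritic cells and macrophages that binds CCR4, stood at 19.7 to 25.1 CPM and 28.9 to 40.0 CPM (log2 difference 0.56 (SE 0.13)). Ccl6, made by macrophages and other myeloid cells, was lower in every Ccl11-high sample, with 1120.3, 678, 747 and 686 CPM against 494, 479, 552 and 631 CPM (log2 difference -0.58 (SE 0.18)). Ccl9, a related myeloid chemokine, overlapped with a log2 difference of -0.45 (SE 0.17).

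Of 14 measured CXC and other chemokines, Cxcl1 and Cxcl2 were separated upward (14.3%, against 9.35% of all genes) and 0 downward. Cxcl2, which shares the receptor CXCR2 with Cxcl1, stood at 523, 615, 640.3 and 536 CPM in the Ccl11-low and 655, 679, 710.3 and 762 CPM in the Ccl11-high samples. Its log2 difference of 0.28 (SE 0.09) left the nearest samples of the sides, anti-BAFF Ab mouse 5 and control Ab mouse 6, close together. Cxcl12, the stromal chemokine that binds CXCR4, overlapped (log2 difference 0.14 (SE 0.09)).

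On the receptor side, 20 genes were measured. Ackr1, Ackr2, Ackr3 and Ccr4 were separated upward (20%, against 9.35% of all genes) and Cxcr4 downward (5%, against 7.05%). The log2 differences of these receptor genes ran from -2.21 to 1.19, with a median of -0.04. Ackr1, an atypical receptor of venule endothelium that binds CXC and CC chemokines, stood at 15.8, 19.98, 20.7 and 25.7 CPM in the Ccl11-low and 39.0, 28.7, 34.4 and 40.8 CPM in the Ccl11-high samples (log2 difference 0.81 (SE 0.14)). Cxcr4 stood at 118, 101, 105 and 90.3 CPM and 84.9, 79.4, 82.3 and 78.5 CPM (log2 difference -0.34 (SE 0.08)). Ccr3, the receptor of eotaxin-1, stood at 4.65, 3.84, 3.70 and 5.07 CPM and 3.22, 3.72, 4.11 and 4.25 CPM, with a log2 difference of -0.18 (SE 0.18). The eosinophil list gave no separated gene among 8 of 12 that were measured, and its median was 0.14. Siglecf, an eosinophil surface lectin that macrophages can also carry, stood at 2.29 to 3.23 CPM in the Ccl11-low and 2.76 to 3.26 CPM in the Ccl11-high samples. At levels of a few CPM, a difference in eosinophil genes smaller than the spread between the samples could not be seen.

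Type 2 signals, which govern eosinophils and eotaxins in tissue, gave 1 separated gene of 15 (6.67%, against 9.35% of all genes). This gene was Tslp, an alarmin of epithelial and stromal cells, at 1.30 to 2.63 CPM and 2.71 to 3.72 CPM (log2 difference 0.69 (SE 0.25)). Log2 differences in the list ran from -3.07 to 1.92. Retnla, a target of IL-4 and IL-13 in macrophages, overlapped at 291, 272, 188 and 127 CPM and 371, 735, 236 and 354 CPM, with a log2 difference of 0.94 (SE 0.23). Il4ra and Stat6, the receptor and transcription factor of this axis, overlapped with log2 differences of 0.23 and -0.19.

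Vascular genes were higher on the Ccl11-high side. Of 14 endothelial markers, 14 had a difference above 0, 12 were separated upward (85.7%, against 9.35% of all genes) and 0 downward, and the median log2 difference was 0.53 (0.52 within control Ab and 0.47 within anti-BAFF Ab). Their summed level was 1671, 2313, 2054 and 1807 CPM in the Ccl11-low and 2889, 2554, 2755 and 2806 CPM in the Ccl11-high samples. In such bulk samples, fewer cells of a type and less RNA per cell cannot be told apart. Cdh5, the cadherin of endothelial junctions, stood at 196, 285, 265 and 227 CPM and 359.8, 319, 364 and 365 CPM (log2 difference 0.53 (SE 0.12)). Pecam1 (0.48), Kdr (0.46), Flt1 (0.60), Tek (0.65) and Vwf (0.59) had differences of about the same size. Of 6 lymphatic markers, Flt4 (0.58) and Pdpn (0.51) were separated upward (33.3%, against 9.35% of all genes). The lymphatic median was 0.86, with 1.25 within control Ab and 0.27 within anti-BAFF Ab. Mmrn1 overlapped at 12.4 to 30.2 CPM and 24.1 to 52.6 CPM despite a log2 difference of 0.98 (SE 0.33). Its difference was 1.76 within control Ab and 0.26 within anti-BAFF Ab.

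A list of genes tied to activated and venular endothelium included several of the larger differences. Which cells of the SVF made these transcripts was not tested. This list was written after values had been seen, so its count is a description. Of 13 measured genes, 10 were separated upward (76.9%, against 9.35% of all genes) and 0 downward, and the median was 0.59. Selp, which encodes P-selectin, the first tether of leukocytes to venules, stood at 70.9, 121, 116 and 149 CPM in the Ccl11-low and 321, 234, 271 and 246 CPM in the Ccl11-high samples (log2 difference 1.25 (SE 0.21)). Sele, or E-selectin, which endothelium makes on contact with IL-1 or TNF, stood at 30.5, 54.1, 54.5 and 69.1 CPM and 125, 94.2, 108 and 101 CPM (log2 difference 1.07 (SE 0.21)). For both selectins the highest Ccl11-low sample was anti-BAFF Ab mouse 7 and the lowest was control Ab mouse 1. Thbd, or thrombomodulin, stood at 434, 1238, 951 and 896 CPM and 1759, 1915, 2102 and 1816 CPM (log2 difference 1.11 (SE 0.27)). Procr, the protein C receptor that works with it, stood at 67.9, 84.4, 74.9 and 79.6 CPM and 171, 160.4, 169 and 134 CPM (log2 difference 1.05 (SE 0.10)), and control Ab mouse 1 was not far from the other Ccl11-low samples.

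Mural cells, which wrap vessels as pericytes and smooth muscle, also had differences above 0 in all 10 markers. Of these, Rgs5, Notch3, Kcnj8 and Abcc9 were separated upward (40%, against 9.35% of all genes). The median was 0.53, and 0.32 without control Ab mouse 1. Summed mural levels overlapped by a little, at 572 to 1140.3 CPM in the Ccl11-low and 1136 to 1498 CPM in the Ccl11-high samples. Rgs5 stood at 126, 238, 212 and 181 CPM in the Ccl11-low and 332, 305, 302 and 280.1 CPM in the Ccl11-high samples (log2 difference 0.69 (SE 0.18)). The smooth muscle genes Myh11 and Acta2 overlapped, with differences of 1.11 and 0.94 within control Ab but 0.43 and 0.09 within anti-BAFF Ab. That contrast between the treatments was not tested.

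Fibroblast genes were in part higher. Of 15 pan-fibroblast markers, 13 were above 0 and 6 separated upward (40%, against 9.35% of all genes), with a median of 0.21. Dcn, the collagen-binding proteoglycan decorin, stood at 2189, 3341, 3267 and 3070.0 CPM in the Ccl11-low and 4346, 4685, 4412 and 4453 CPM in the Ccl11-high samples (log2 difference 0.60 (SE 0.14)). Gsn (0.65), Cd34 (0.47), Dpt (0.39), Pdgfra (0.37) and Serpinf1 (0.21) were the others that were separated. Of 14 markers of the Dpp4+ interstitial progenitors, 4 were separated upward (Cd55, Limch1, Aldh1a3 and Efhd1) and 1 downward (Wnt2, at no more than 3.04 CPM), with a median of 0.48. The upward share was 28.6%, against 9.35% of all genes. Pi16, which names this population in many atlases, overlapped at 153 to 295 CPM and 292 to 377 CPM (log2 difference 0.53 (SE 0.19)).

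The 24 collagen and matrix genes had a median of -0.06, which was -0.19 within control Ab (7 genes above 0) and 0.12 within anti-BAFF Ab (18 above 0). The 4 that were separated upward (16.7%, against 9.35% of all genes) were the crosslinking enzyme Lox (0.56), the protease inhibitors Timp2 (0.39) and Timp3 (0.53) and the protease Mmp14 (0.21), none of them a collagen. Col3a1 stood at 6967, 4108, 5491 and 4676 CPM in the Ccl11-low and 3063, 3616, 4456 and 4404 CPM in the Ccl11-high samples (log2 difference -0.46 (SE 0.19)), with the sides overlapping. Committed preadipocyte markers had a median of 0.09, with Sparcl1 (0.56) and Fmo2 (0.58) separated upward (14.3% of the list). Mesothelial markers had a median of 0.35, and of 14 genes only Wt1, the transcription factor of the mesothelium, was separated, at 47.8, 119.6, 90.4 and 85.9 CPM and 155, 162, 158 and 135 CPM (log2 difference 0.82 (SE 0.24)).

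Some genes that build hyaluronan and its sugar precursors were higher in every Ccl11-high sample. This list, too, was written after values had been seen, so its count is a description. Of 14 measured genes, 6 were separated upward (42.9%, against 9.35% of all genes) and 0 downward. In this list 4 genes were below 0, and the median was 0.39. Has2, a hyaluronan synthase, stood at 22.8, 42.9, 42.5 and 45.9 CPM in the Ccl11-low and 60.4, 83.3, 83.1 and 83.3 CPM in the Ccl11-high samples (log2 difference 1.02 (SE 0.19)). Ugdh, which makes UDP-glucuronate, stood at 268, 489.9, 391 and 397 CPM and 715, 854, 838 and 832 CPM (log2 difference 1.07 (SE 0.17)). Gfpt2, which opens the hexosamine pathway, stood at 305, 748, 547 and 605 CPM and 1012, 1261, 1300.4 and 1316 CPM (log2 difference 1.15 (SE 0.24)). Uap1, which makes UDP-N-acetylglucosamine, had a log2 difference of 1.02 (SE 0.18), and Tnfaip6, whose product links hyaluronan to inter-alpha-inhibitor, one of 0.88 (SE 0.18). In each of these 5 genes control Ab mouse 1 was the lowest sample.

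Immediate early genes, which respond within minutes to growth factors, cytokines and to tissue handling, were split. Of 35 genes, 7 were separated upward (20%, against 9.35% of all genes) and 3 downward (8.57%, against 7.05%), and the median was 0.25. That median was 0.088 without control Ab mouse 1 and 0.43 without control Ab mouse 2. Fosl1 (0.96), Nr4a3 (0.93), Maff (0.65), Mafk (0.59), Ier5 (0.55), Myc (0.52) and Gadd45b (0.42) were higher, whereas Egr2 (-0.64), Rhob (-0.41) and Klf6 (-0.24) were lower in every Ccl11-high sample. Nr4a3, an orphan nuclear receptor, stood at 273, 575, 495 and 423 CPM in the Ccl11-low and 735, 954, 940.1 and 740.3 CPM in the Ccl11-high samples, and Egr2, a zinc finger factor, at 213, 146, 164 and 173 CPM and 101, 111, 109 and 124 CPM. The canonical members Fosb, Junb, Egr1 and Zfp36 overlapped, with log2 differences of 0.03, 0.33, 0.14 and 0.01. Among 16 heat shock genes, 4 were separated upward (Bag3 0.60, Cryab 0.39, Hsp90aa1 0.28 and Dnaja1 0.23) and 0 downward, with a median of 0.04. The upward share was 25%, against 9.35% of all genes. The part of tissue handling in the results was not tested.

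Single genes of other lists were separated as well. Hk2, the hexokinase of glucose-using cells, stood at 85.2, 175, 147 and 208 CPM in the Ccl11-low and 302, 293, 336 and 294 CPM in the Ccl11-high samples (log2 difference 1.01 (SE 0.22)). Pdk1, a pyruvate dehydrogenase kinase, was lower (-0.50), and Ldha overlapped (-0.05). Among 14 unfolded protein response genes 4 were separated upward (Atf4 0.47, Trib3 0.83, Dnajb9 0.38 and Xbp1 0.11) and Pdia4 (-0.25) downward. The upward share was 28.6%, against 9.35% of all genes. The glucocorticoid-responsive genes Sgk1 (0.41), Errfi1 (0.60) and Mt1 (0.60) were separated upward among 14 (21.4%), with a list median of -0.01. The complement genes separated upward included C1s1 (0.41), Serping1 (0.32), Cd55 (0.69) and C1rb, and C3 overlapped at 7295 to 9943 CPM and 9207 to 10998 CPM (0.30). In the clock list 3 of 18 genes (16.7%) were separated upward (Clock 0.20, Cry1 0.40 and Cry2 0.40) and Bhlhe41 (-0.52) downward. Of 20 interferon-stimulated genes, Gbp2 (0.36) and Oasl1 (0.50) were separated upward, a share near the 9.35% of all genes. Of 12 mitochondrially encoded genes, mt-Nd1 (0.19) was separated upward.

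Genes targeted by NRF2, the regulator of glutathione and thioredoxin systems, went both ways in a list also written after values had been seen. Of 14 genes, Gsr (-0.84), Ptgr1 (-0.88) and Gclm (-0.73) were lower in every Ccl11-high sample (21.4%, against 7.05% of all genes). Gclc (0.38) and Txnrd1 (0.33) were higher in every Ccl11-high sample (14.3%, against 9.35% of all genes). The list median was -0.25. Gsr, or glutathione reductase, stood at 115, 57.8, 80.4 and 74.8 CPM in the Ccl11-low and 42.4, 44.7, 48.2 and 48.0 CPM in the Ccl11-high samples. The highest value of Gsr, Gclm and Ptgr1 was that of control Ab mouse 1.

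Among the 12 genes with the largest downward differences were secreted and surface proteins of macrophages and other myeloid cells. Cd5l, a macrophage protein that circulates with IgM, stood at 68.3, 59.5, 22.9 and 15.5 CPM in the Ccl11-low and 8.85, 7.68, 13.2 and 13.3 CPM in the Ccl11-high samples (log2 difference -1.73 (SE 0.47)), with differences of -2.93 within control Ab and -0.50 within anti-BAFF Ab. Spp1, or osteopontin, stood at 143, 113, 409 and 94.6 CPM and 59.2, 61.6, 73.7 and 69.8 CPM (log2 difference -1.45 (SE 0.40)), and the difference was -0.80 without anti-BAFF Ab mouse 5, in which neutrophil genes were highest as well. Bst1, a surface ectoenzyme of myeloid and stromal cells, stood at 62.4, 27.2, 39.7 and 21.6 CPM and 14.8, 15.6, 19.8 and 18.4 CPM (log2 difference -1.12 (SE 0.31)), and the difference was -0.74 without control Ab mouse 1 and -0.51 without mice 1 and 5. Clec4n, the gene of the lectin Dectin-2, stood at 22.1, 10.3, 31.9 and 11.1 CPM and 7.75, 8.36, 10.2 and 9.38 CPM (log2 difference -1.07 (SE 0.34)), and the difference was -0.67 without anti-BAFF Ab mouse 5 and -0.25 without mice 1 and 5. Pstpip1, a cytoskeletal adaptor of blood cells, had a log2 difference of -0.90 (SE 0.22), which was -0.58 without control Ab mouse 1. Nxpe5 had the smallest SE of the 12, at 53.8, 35.8, 48.9 and 35.2 CPM and 16.8, 15.7, 21.6 and 18.0 CPM (log2 difference -1.27 (SE 0.17)). Lrp8, a lipoprotein receptor that also binds reelin, had a log2 difference of -1.06 (SE 0.25).

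The macrophage list as a whole did not separate. Of 14 markers 0 were separated in either direction, 4 were above 0, and the median was -0.18 (-0.35 within control Ab and -0.01 within anti-BAFF Ab). Csf1r, the receptor that macrophages depend on, stood at 1234, 1181, 1234 and 1024 CPM in the Ccl11-low and 955, 999, 1126 and 1133 CPM in the Ccl11-high samples. Of 11 lipid-associated macrophage markers all 11 had a treatment-adjusted difference below 0, and Spp1 and Plin2 were separated downward (18.2%, against 7.05% of all genes). Within anti-BAFF Ab, 6 of the 11 were above 0. The treatment-adjusted list median was -0.23 (-0.34 within control Ab and 0.01 within anti-BAFF Ab). Without control Ab mouse 1, in which the list summed to 11306 CPM against 6213 to 7977 CPM in the Ccl11-high samples, that median was 0.010. Plin2, which coats lipid droplets, stood at 1445, 875, 999 and 936 CPM and 613, 497, 679.8 and 866 CPM (log2 difference -0.69 (SE 0.21)).

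Cell division genes had differences below 0, but few were separated. All 22 were below 0, 2 were separated downward (9.09%, against 7.05% of all genes), and the median was -0.81 (-0.90 within control Ab and -0.37 within anti-BAFF Ab). Their summed level overlapped, at 502 to 934 CPM in the Ccl11-low and 446 to 602 CPM in the Ccl11-high samples. Cenpe and Aurka were the separated genes of the list, and by the rule for the largest differences Ccna2, Ccnf, Knstrn and Wee1 were added. Ccna2, or cyclin A2, stood at 29.8, 13.2, 20.1 and 17.5 CPM in the Ccl11-low and 8.19, 8.49, 11.9 and 12.0 CPM in the Ccl11-high samples (log2 difference -1.004 (SE 0.26)), and Cenpe, a kinetochore motor, at 20.3, 8.45, 15.3 and 12.6 CPM and 7.53, 6.75, 7.18 and 7.50 CPM (log2 difference -0.96 (SE 0.25)). Mki67, a general marker of cycling cells, overlapped at 163, 84.6, 129.5 and 126 CPM and 84.9, 77.7, 109 and 116 CPM (log2 difference -0.40 (SE 0.19)). Control Ab mouse 1 had the highest value of each of these genes, and without it the list median was -0.36 and the difference of Ccna2 -0.65.

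**Figure D5:**
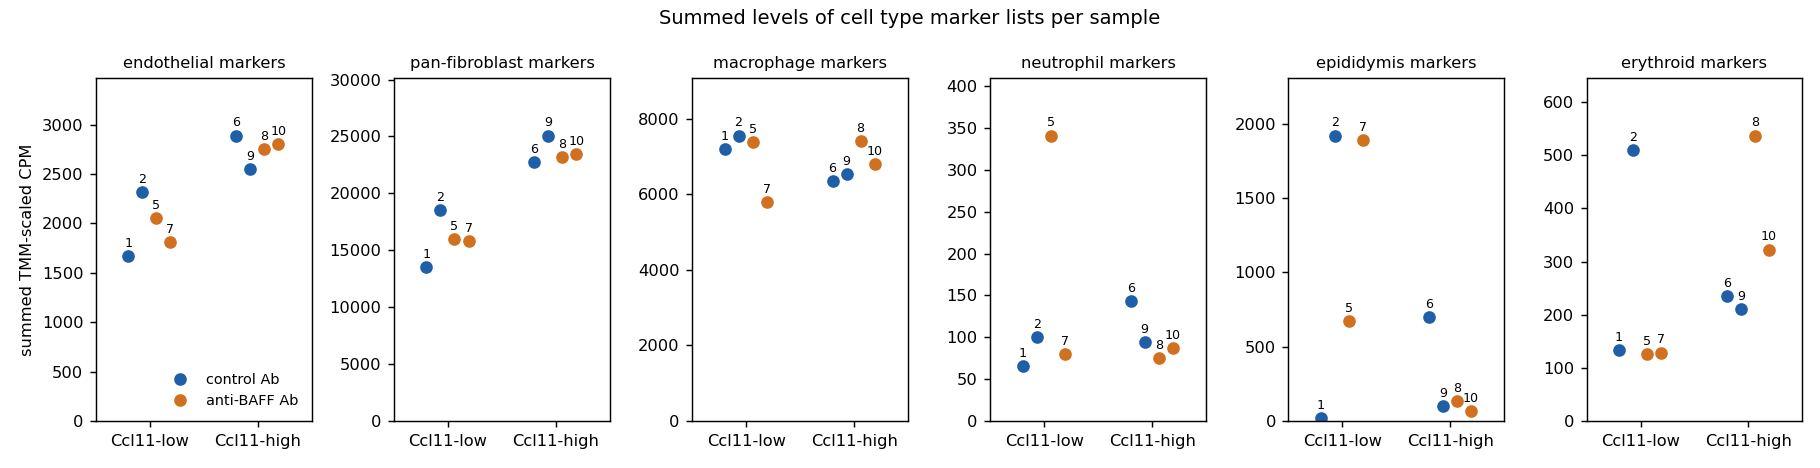
Summed TMM-scaled CPM of the measured markers of 6 cell types or tissues (vertical axes, linear, from 0) in each Ccl11-low and Ccl11-high sample, with mouse numbers beside the points and colour for treatment. Endothelial and pan-fibroblast sums do not overlap between the sides, and neutrophil and epididymis sums are highest in anti-BAFF Ab mouse 5 and in control Ab mouse 2 with anti-BAFF Ab mouse 7.

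Lists of other blood and tissue cells held few separated genes or none. T cell markers (median -0.19, 12 genes) and mast cell markers (median 0.04, 9 genes) gave no separated gene, and neither did the 7 genes of the BAFF and APRIL system (median 0.13). B cell markers had a median of -0.21, and the only separated gene of 15 was Ebf1 (0.46), which adipocyte progenitors also express. Ighm, the IgM heavy chain, stood at 1603, 1007, 345 and 160.0 CPM in the Ccl11-low and 1348, 1642, 387 and 199.7 CPM in the Ccl11-high samples, and was 1 of the 9 genes called by treatment. Of 10 NK cell markers 1 was separated, Gzma, at no more than 4.71 CPM. Of 12 monocyte and dendritic cell markers 1 was separated, Zbtb46 (0.43), and of 15 adipocyte markers Acaca (0.18) was higher and Pnpla2 (-0.20) lower. Neutrophil markers had a median of -1.79 over 7 of 14 genes that were measured, and -0.17 without anti-BAFF Ab mouse 5. Globin and other erythroid genes summed to 133, 509, 126 and 129 CPM in the Ccl11-low and 235, 211, 537 and 323 CPM in the Ccl11-high samples. All 5 that were measured were above 0 and none was separated, and their median of 0.54 was -0.23 within control Ab and 1.71 within anti-BAFF Ab. Epididymis markers had a median of -3.29 over 8 of 18 genes, with none of the 8 separated.

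The genes whose pattern over the 8 samples was most like that of Ccl11 were not the ones with the largest differences. By Pearson's r of log2 CPM centred within treatment, the first 10 of 11038 genes were Dnajb6 (0.997), Gpbp1 (0.992), Cltb (0.988), Sra1 (0.985), Bmpr2 (0.984), Arhgap23 (0.983), Maml2 (0.983), Nod2 (0.982), Hsp90aa1 (0.981) and Procr (0.981). Dnajb6, a co-chaperone, stood at 81.9, 84.5, 86.4 and 86.1 CPM in the Ccl11-low and 104, 108, 111 and 105 CPM in the Ccl11-high samples (log2 difference 0.34 (SE 0.06)). Nod2, an intracellular sensor of bacterial wall fragments, stood at 16.6, 22.1, 22.6 and 23.0 CPM and 32.2, 37.8, 43.6 and 33.7 CPM (log2 difference 0.81 (SE 0.12)). The 5 genes most opposed were Mrpl45 (-0.990), Akr1c13 (-0.985), Slc31a1 (-0.979), Leo1 (-0.978) and Cdipt (-0.976). Akr1c13, an aldo-keto reductase, stood at 17.4, 14.8, 16.6 and 17.1 CPM and 11.8, 9.91, 11.1 and 11.7 CPM (log2 difference -0.56 (SE 0.10)). With values in 2 groups and 8 points, a high r reflects the gap between the sides more than the order within them.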

How the data were processed

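The authors deposited raw counts per gene from bulk paired-end RNA sequencing of 8 SVF samples in a table with a column per mouse, beside gene coordinates and gene lengths. Aligner, counting tool and annotation release are not given in the sources used here; the submitters' processing notes name mm10. The gene length column, an other value in bases as deposited, was used only to sort genes by length. Groups and mouse numbers come from the sample titles; no number occurs in both groups, so no mice were paired.

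The tools were R 4.3.3 and edgeR 4.0.16, with the expression filter at a minimum count of 10, TMM factors and a quasi-likelihood fit. Of 54532 genes, 15963 were kept. Sides were compared without p-values, by treatment-adjusted log2 differences with SEs derived from the F statistic, by genes whose 4 values on 1 side all exceeded the 4 on the other, and by list medians. Within-treatment differences used log2 CPM with a prior count of 2. Treatment was tested with edgeR and Benjamini-Hochberg adjustment at 0.05, with DESeq2 1.42.0 as an alternative. Mouse number and depth were compared by exact permutation tests (scipy 1.17.1 in Python 3.11.15). No 2 replicates were a repeated library (smallest chi-square per degree of freedom 7.91). The floor of 3 counts covers counting error only. The steps were tested on simulated counts with changes larger than most differences reported here, so recovery of smaller differences was not tested.

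The members and the gene lists were chosen with earlier results of these data known, and 3 lists (hyaluronan and hexosamine genes, NRF2 targets, and activated endothelial and venule genes) after these values were seen. Genes were named by rule: Ccl11 and Cxcl1; the 12 largest upward and 12 largest downward differences among separated genes with a mean of at least 5 CPM, without Gm and Rik names; separated and abundant list members; the 10 genes most like and 5 most opposed to Ccl11; and genes called by treatment. Tgm4, C1ra and the gene named in the closing observations were added after their values were seen. Promoter sequences are RefSeq's (GRCm38.p6); 11533 were matched by symbol. Alternatives were other normalizations and filters, a 1.5-fold minimum, leaving out each mouse, mice 2 and 7, or mice 1 and 5 (the last chosen after seeing the data), DESeq2 and the side as a further term. P-values measure the spread between single samples of mice. The authors' cytometry, ELISA and pathway results were not analysed here, and the results of some list genes are not reported here.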

Additional observations from a re-analysis of the deposited data

Results flagged for a closer look

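In 134 groups of 4 samples (each side, for 26 genes and 41 list scores), a gap of the highest or lowest sample to the rest passed Dixon's limit 9 times, where chance alone would give about 6.7. Control Ab mouse 1 was far below the other Ccl11-low samples for Cxcl1 (8.87 on the log2 CPM scale), for the score of inflammatory cytokine receptors (6.81, the mean log2 CPM of the list), for that of hyaluronan and hexosamine genes (6.38) and for that of activated endothelial and venule genes (6.44). Anti-BAFF Ab mouse 5 was far above the other Ccl11-low samples for the neutrophil score (5.00), and control Ab mouse 2 for the erythroid score (6.09). Among the Ccl11-high samples, control Ab mouse 6 lay apart for Gfpt2 (9.99, low) and for the neutrophil score (3.21, high), and control Ab mouse 9 for the score of monocyte and dendritic cell markers (4.16).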

How the results depend on the processing

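The split rests on 1 gene measured once in 8 samples, and its 2 sides cannot be told apart from anything else that varied with Ccl11. Leaving out samples makes separation easier by construction, so larger counts then are no sign of a larger difference. The number of genes separated upward was 1492 and lay between 1650 and 2233 without 1 sample, and that of genes separated downward, 1125, lay between 1260 and 1986. The counts were 379 upward and 127 downward with a 1.5-fold minimum, 3239 and 3028 without mice 2 and 7, and 2306 and 2461 without mice 1 and 5. With library size only in place of TMM, 1090 genes were separated upward and 1902 downward. The neutrophil median of -1.79 was -0.61 over genes with at least 10 counts in every sample and -0.029 without mice 1 and 5, and lay between -2.23 and -0.17 without 1 sample. The median of lipid-associated macrophage markers lay between -0.31 and 0.010, and its sign turned only without control Ab mouse 1. That of cell division genes lay between -0.95 and -0.36 and was -0.29 without mice 1 and 5. That of pan-fibroblast markers lay between 0.21 and 0.29. Without mice 2 and 7, the median of Dpp4 progenitor markers was 0.74 and that of epididymis markers -1.37. Genes called lower by treatment (9 of them) were 64 with DESeq2 (3 higher), 19 without a filter and 2 with the Ccl11 side as a further term, and between 2 and 9 without 1 mouse. The causes were not tested. For single named genes, 360 of 375 values under other settings stayed within the spread between replicates, and none changed sign. All of these genes were separated, so leaving out samples could not turn their sign, and the stable sign is no sign of robustness. No paired analysis was possible because the treatment groups share no mouse number.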

Other observations

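9530053A07Rik had the largest log2 difference of Ccl11-high minus Ccl11-low samples within the anti-BAFF Ab-treated mice among the genes tested, at 0.124, 0.118, 0.606 and 0.225 CPM in the Ccl11-low and 0.585, 181, 5758 and 551 CPM in the Ccl11-high samples. Tgm4 had the same order of the highest 3 samples, at 0.805, 16.3, 595 and 48.1 CPM on the Ccl11-high side and no more than 1.12 CPM on the Ccl11-low side. Both genes were picked after their values were seen. Control Ab mouse 6, a Ccl11-high sample, stayed below 1 CPM for both.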
